A study of Mus musculus with 23 samples.

Results

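Cholesterol synthesis was followed through 8 genes, Hmgcs1, Idi1, Fdft1, Sqle, Lss, Cyp51, Srebf2 and Insig1, in quadriceps muscle of mice. They were taken by symbol from the 55573 gene IDs of the count table, all 8 were found, and all 8 were among the 13049 genes with enough counts to be tested. The first 6 encode enzymes of the pathway, Srebf2 encodes its main transcription factor and Insig1 encodes a brake on that factor. Receptors and transporters for cholesterol uptake are not among the 8 and were counted from a separate list. C57Bl6 mice (C57BL/6J in the study's methods) of both sexes, 8 to 10 weeks old, carried a subcutaneous pellet for 14 days and were fasted for 5 h before the muscle was taken. The corticosterone pellet held 50 mg corticosterone with 50 mg cholesterol, and the vehicle pellet held 100 mg cholesterol. The groups were 6 vehicle-treated females, 5 corticosterone-treated females, 6 vehicle-treated males and 6 corticosterone-treated males, each library coming from 1 mouse. Since the pellets differed in both steroids, the effects of corticosterone and of the smaller cholesterol load cannot be told apart here. No genotype beyond the strain was given, and whether the sexes were handled in the same batch was not stated, so sex and batch cannot be told apart either.

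Cells make cholesterol from acetyl-CoA in the endoplasmic reticulum. When the membrane there is rich in sterol, the precursor of SREBP2, the product of Srebf2, is held back by the Insig proteins. When sterol runs low, SREBP2 moves to the Golgi, is cut, and its free end enters the nucleus to switch on the synthesis enzymes and Insig1 itself. Muscle fibers express the pathway at a low level, whereas fat and liver cells run it more actively. Glucocorticoids act through their own nuclear receptor, and corticosterone is the main glucocorticoid of mice.

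Promoter sequence is shown because 6 of the 8 genes moved together in treated females, and SREBP2 binds promoters of this pathway beside NF-Y. RefSeq promoters on GRCm38.p6, running from 250 bases before to 50 bases after the RefSeq start of the gene, were found for Hmgcs1, Idi1, Lss, Cyp51, Srebf2 and Insig1. Both strands were searched for TCACNCCA, a sterol regulatory element core, for CCAAT, the NF-Y box, and for AGAACA, a core of the glucocorticoid response element. The motifs share no site in the stretches shown. CCAAT was found in 6 of 6 members and in 37.4% of all 32851 promoters. TCACNCCA was found in Hmgcs1 and Srebf2 and in 4.36% of all promoters, and AGAACA was found in Hmgcs1 and in 19.0% of all promoters. A match describes these letters and is not evidence of binding. The stretches below are read 5′ to 3′ on the strand of the gene, with every match in capitals (CCAAT appears as ATTGG where it lies on the other strand). They cover chr13:119690102-119690322 for Hmgcs1, chr15:82147095-82147150 for Srebf2, chr13:8885549-8885577 for Idi1, chr10:76531531-76531559 for Lss, chr5:28071184-28071212 for Insig1 and, on the minus strand, chr5:4104710-4104738 for Cyp51.
Hmgcs1: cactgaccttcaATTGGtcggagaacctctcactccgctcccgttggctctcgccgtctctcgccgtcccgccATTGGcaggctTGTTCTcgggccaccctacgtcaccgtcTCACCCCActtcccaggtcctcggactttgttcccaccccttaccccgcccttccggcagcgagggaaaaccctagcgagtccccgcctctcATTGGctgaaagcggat
Srebf2: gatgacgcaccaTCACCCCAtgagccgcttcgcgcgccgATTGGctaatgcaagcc
Idi1: tgcctccagctgATTGGcgagcccgggca
Lss: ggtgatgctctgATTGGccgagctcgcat
Insig1: cgccctcctcccATTGGctccggcggcct
Cyp51: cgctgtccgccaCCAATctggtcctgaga
In Hmgcs1 the TCACNCCA match starts 137 bases before the RefSeq start, and in Srebf2 it starts 162 bases before it. The NF-Y box nearest to it lies downstream in Srebf2, starting 135 bases before the RefSeq start. These starts differ from the GENCODE gene coordinates given with each gene, which in both genes begin elsewhere.

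Each library held 20904150 to 21984477 read pairs assigned to genes. Levels are expressed in CPM, which divide each count by its TMM-adjusted library total. Before the TMM adjustment, a count of 3 corresponds to at most 0.144 CPM. The quadriceps identity was visible in the 8 myofiber markers, which summed to 80502 to 234700 CPM over the 23 mice. The lowest sums were those of treated females F10 (80502 CPM) and F6 (104220 CPM), and no other mouse was below 131280 CPM. Markers of other tissues varied between mice. The 8 adipocyte markers summed to 278 to 7129 CPM, and the 8 hepatocyte markers summed to 15.4 to 2472 CPM with the highest sums in M8 and F10. The 8 Schwann cell markers summed to 32.0 to 222 CPM and the 8 macrophage markers to 46.6 to 297 CPM. In muscle homogenate, fewer cells of a type and less RNA per cell cannot be told apart.

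Per kilobase of exon, the 8 genes spanned a wide range of levels in vehicle-treated females. Fdft1, the squalene synthase gene, was highest at 20.1 ± 2.48 RPKM (SD, n = 6). Hmgcs1 (7.54 ± 0.627 RPKM) and Insig1 (7.46 ± 2.52 RPKM) followed and overlapped each other. Srebf2 lay at 2.89 ± 0.301 RPKM, above Cyp51 at 1.74 ± 0.238 RPKM, with no overlap between the mice. Idi1 (0.793 ± 0.190 RPKM), Lss (0.403 ± 0.0843 RPKM) and Sqle (0.196 ± 0.0654 RPKM) were the lowest, and the neighbors in this order overlapped only between Idi1 and Lss. The order was the same in vehicle-treated males. In corticosterone-treated males Insig1 (7.97 ± 1.92 RPKM, n = 6) stood nominally above Hmgcs1 (7.22 ± 1.17 RPKM) and the ranges overlapped. In corticosterone-treated females Insig1 had the highest mean at 28.8 ± 20.2 RPKM (n = 5), but its range of 5.97 to 45.5 RPKM contained that of Fdft1, 16.8 to 25.1 RPKM.

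The comparison of corticosterone with vehicle pellets within each sex asked whether the treatment altered the pathway in muscle. In females 6 of the 8 genes rose, namely Hmgcs1, Idi1, Sqle, Lss, Cyp51 and Insig1, against 7.40% of all genes that rose in the same comparison (edgeR quasi-likelihood test, Benjamini-Hochberg adjusted p under 0.01). The median log2 fold change of the 8 genes was 1.46, and that of all tested genes was 0.04. In males none of the 8 genes passed the test, while 26.3% of all genes did, and 2 of the 8 (Fdft1 and Lss) had an unadjusted p under 0.05. The median log2 fold change of the 8 genes in males was 0.28, beside -0.02 for all tested genes. The female calls were not shared evenly by the treated mice: F2, F6 and F10 were high, and F4 and F8 lay in or near the vehicle range for most of the genes. No gene of the 8 was higher in every treated female than in every vehicle-treated female, a separation that 3.38% of all genes showed. Its counterpart in males was also seen in 0 of the 8 genes and in 10.8% of all genes. When the females were fitted without the males, the 6 log2 fold changes hardly moved, but none of the 8 genes passed the test, with Lss nearest to it at an adjusted p of 0.0111 (edgeR). The number of genes called among all genes in females fell from 1748 to 561 in that fit.

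**Figure D1:**
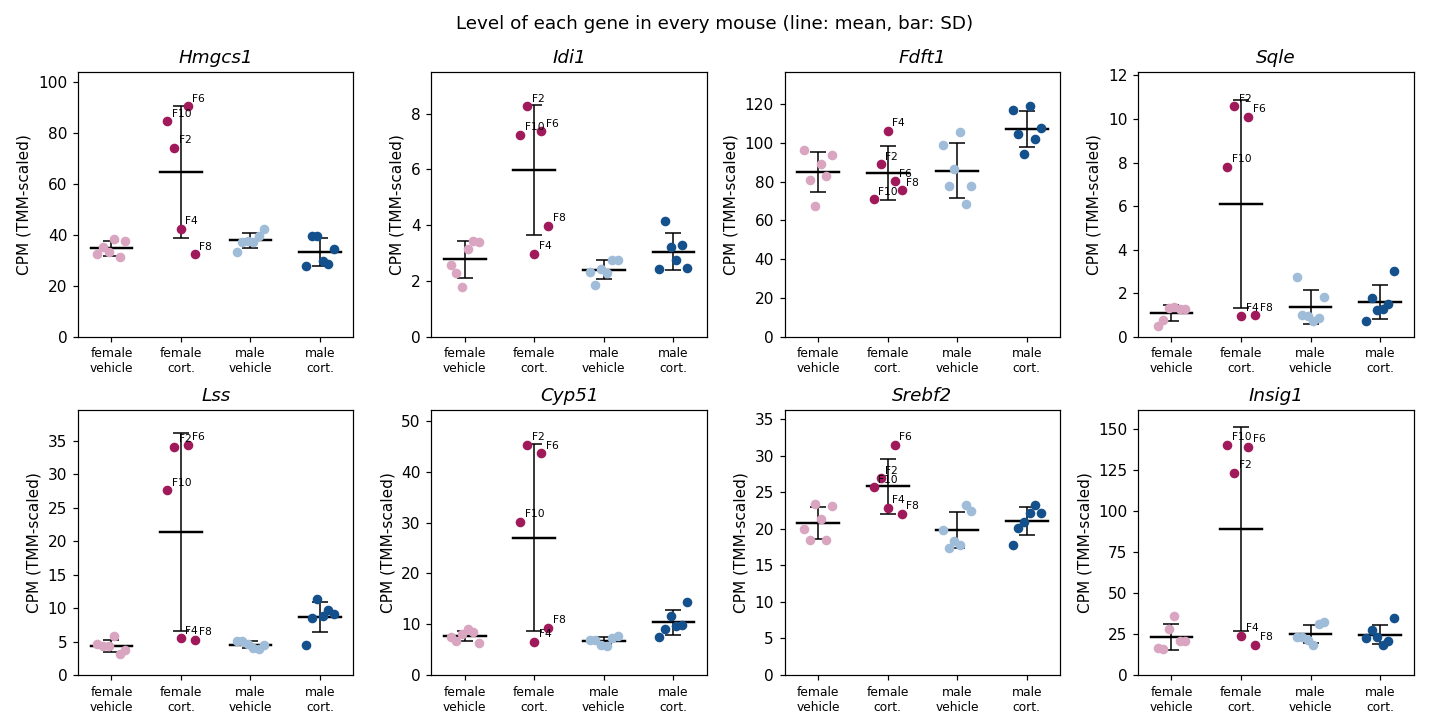
Level of each of the 8 genes in every mouse, in TMM-scaled CPM on axes that start at 0, by sex and pellet (points are mice, the horizontal line is the group mean and the bar is the SD, with 6, 5, 6 and 6 mice from left to right). F2, F6 and F10 stand above the vehicle-treated females in every panel except Fdft1, and treated males stay near the vehicle-treated males except for Lss and Cyp51.

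Hmgcs1 (ENSMUSG00000093930, chr13:119690379-119708260, plus strand) encodes the cytosolic HMG-CoA synthase, an early enzyme of the pathway. In vehicle-treated females it ranged from 31.3 to 38.2 CPM with a median of 34.2. The treated females had 74.1 (F2), 42.3 (F4), 90.2 (F6), 32.3 (F8) and 84.4 CPM (F10). All but F8 exceeded the highest vehicle-treated female, and F4 did so by a small margin. Its log2 fold change was 0.90 ± 0.19 (SE; adjusted p = 0.00137), or 1.87-fold. In males the level ranged from 33.1 to 42.1 CPM with vehicle (median 37.4) and from 27.6 to 39.5 CPM with corticosterone, and 3 of 6 treated males lay below every vehicle-treated male. The male log2 fold change was -0.19 ± 0.18 (adjusted p = 0.421).

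Idi1 (ENSMUSG00000058258, chr13:8885501-8892451, plus strand) encodes isopentenyl-diphosphate isomerase, which makes the starter unit for chain assembly. It was a low-level gene, at 1.80 to 3.45 CPM in vehicle-treated females with a median of 2.86. Treated females had 8.26 (F2), 2.98 (F4), 7.36 (F6), 3.98 (F8) and 7.24 CPM (F10). Only F4 stayed within the vehicle range, and F8 exceeded it slightly. The log2 fold change was 1.11 ± 0.23 (adjusted p = 0.00141), or 2.15-fold. In males it ranged from 1.87 to 2.77 CPM with vehicle (median 2.38) and from 2.42 to 4.16 CPM with corticosterone, 3 of 6 treated mice being above the vehicle range, and the log2 fold change of 0.34 ± 0.22 did not pass the test (adjusted p = 0.237).

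Sqle (ENSMUSG00000022351, chr15:59315077-59331192, plus strand) encodes squalene epoxidase, the first oxygen-requiring step. It was the lowest of the 8 genes, at 0.487 to 1.38 CPM in vehicle-treated females with a median of 1.27. With corticosterone the levels were 10.6 (F2), 0.962 (F4), 10.1 (F6), 0.983 (F8) and 7.80 CPM (F10). F2, F6 and F10 lay far above the vehicle range and F4 and F8 lay inside it. The log2 fold change of 2.48 ± 0.54 (adjusted p = 0.00214) was the largest of the 8 genes and also had the widest error. In males it ranged from 0.715 to 2.74 CPM with vehicle and from 0.711 to 3.04 CPM with corticosterone, with a log2 fold change of 0.24 ± 0.53 (adjusted p = 0.745).

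Lss (ENSMUSG00000033105, chr10:76531588-76557138, plus strand) encodes lanosterol synthase, which closes the sterol ring system. Vehicle-treated females had 3.16 to 5.86 CPM with a median of 4.32. The treated females had 34.1 (F2), 5.48 (F4), 34.4 (F6), 5.26 (F8) and 27.6 CPM (F10). F4 and F8 again fell inside the vehicle range. In females the log2 fold change was 2.30 ± 0.38 (adjusted p = 0.000226), or 4.92-fold. Lss was also the member that moved furthest in males, from 4.51 ± 0.53 CPM with vehicle to 8.66 ± 2.25 CPM with corticosterone (SD, n = 6 each). The treated males had 11.3 (M2), 8.78 (M4), 9.69 (M6), 9.15 (M8), 4.55 (M10) and 8.50 CPM (M12), so that all but M10 exceeded the highest vehicle-treated male at 5.15 CPM. The male log2 fold change was 0.94 ± 0.36 and missed the threshold of 0.01 (adjusted p = 0.0437). When males were fitted without the females, Lss and Cyp51 passed it.

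Cyp51 (ENSMUSG00000001467, chr5:4081145-4104746, minus strand) encodes the demethylase that acts on lanosterol. Vehicle-treated females had 6.29 to 9.04 CPM with a median of 7.75. In treated females it was 45.3 (F2), 6.59 (F4), 43.6 (F6), 9.29 (F8) and 30.1 CPM (F10). F8 sat just above the vehicle range and F4 within it. In females Cyp51 had a log2 fold change of 1.82 ± 0.34 (adjusted p = 0.000651), or 3.52-fold. In males the level was 6.79 ± 0.771 CPM with vehicle and 10.3 ± 2.39 CPM with corticosterone, with 5 of 6 treated mice above the vehicle range. The male log2 fold change was 0.61 ± 0.33 (adjusted p = 0.145).

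Insig1 (ENSMUSG00000045294, chr5:28071363-28078662, plus strand) encodes the endoplasmic reticulum protein that retains the SREBP2 precursor. Vehicle-treated females had 15.9 to 36.3 CPM with a median of 20.8. With corticosterone the females had 123 (F2), 24.0 (F4), 139 (F6), 18.5 (F8) and 141 CPM (F10). F2, F6 and F10 formed a tight set and the other two lay inside the vehicle range. The log2 fold change was 1.95 ± 0.40 (adjusted p = 0.00122), or 3.87-fold. In males the means were 25.1 ± 5.40 CPM with vehicle and 24.7 ± 5.92 CPM with corticosterone, with a log2 fold change of -0.02 ± 0.38 (adjusted p = 0.967).

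Fdft1 and Srebf2 did not pass the test in either sex. Srebf2 (ENSMUSG00000022463, chr15:82147181-82205379, plus strand) had 18.5 to 23.3 CPM in vehicle-treated females. The treated females had 26.9 (F2), 22.8 (F4), 31.5 (F6), 22.1 (F8) and 25.7 CPM (F10), with the same 3 mice above the vehicle range, and the log2 fold change was 0.31 ± 0.10 (adjusted p = 0.0259). In males Srebf2 had a log2 fold change of 0.09 ± 0.10 (adjusted p = 0.504). Fdft1 (ENSMUSG00000021273, chr14:63145150-63179578, minus strand), whose product makes squalene, differed from its pathway neighbors. Vehicle-treated females had 67.3 to 96.1 CPM of Fdft1, and the treated females had 88.9 (F2), 106 (F4), 80.1 (F6), 75.5 (F8) and 70.9 CPM (F10). The only treated female above the vehicle range was F4. The Fdft1 log2 fold change was -0.01 ± 0.12 in females (adjusted p = 0.961) and 0.32 ± 0.11 in males (adjusted p = 0.0266), where the means were 85.7 ± 14.1 CPM with vehicle and 107 ± 9.31 CPM with corticosterone.

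**Figure D2:**
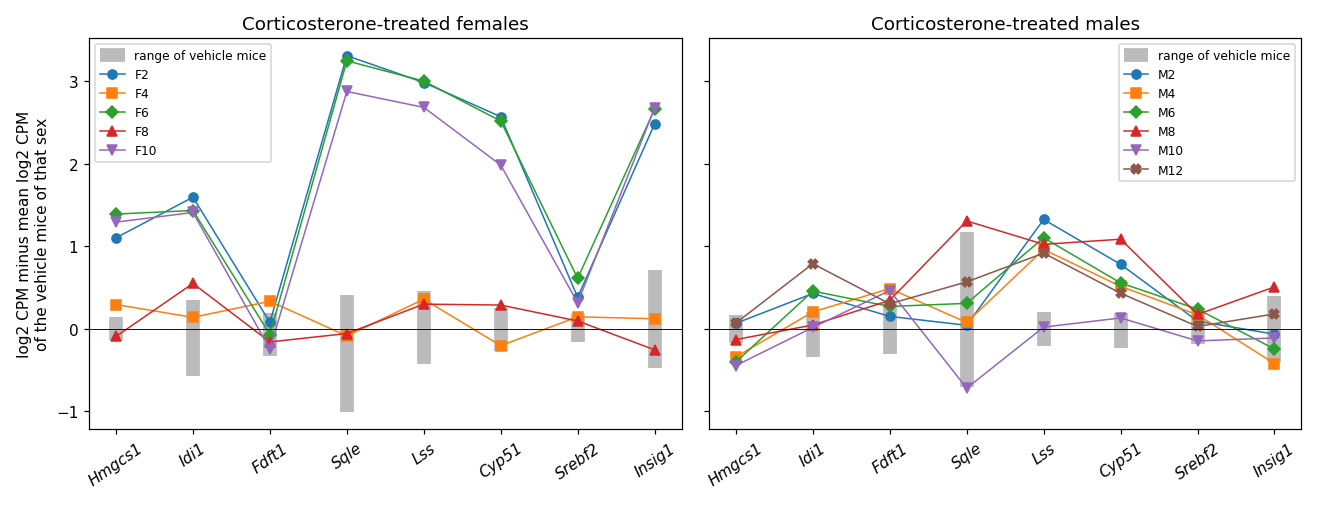
Log2 CPM of each gene in each corticosterone-treated mouse minus the mean log2 CPM of the vehicle-treated mice of the same sex, with females on the left and males on the right (lines join the values of a mouse, gray bars span the vehicle-treated mice). F2, F6 and F10 follow a like profile, high at Sqle, Lss, Cyp51 and Insig1 and flat at Fdft1, whereas F4 and F8 run close to 0.

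The spread between treated females was therefore large for these genes. The SD of log2 CPM in treated females had a median of 0.98 over the 8 genes, compared with 0.28 over all tested genes. Sqle had the highest SD of the 8 at 1.77 and Srebf2 the lowest at 0.21. In the other groups the median SD of the 8 genes was 0.25 (vehicle-treated females), 0.31 (treated males) and 0.19 (vehicle-treated males), beside 0.21, 0.21 and 0.20 over all tested genes.

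The adipocyte marker sum moved with the sterol genes among the treated females. From here on, values of the 5 treated females are listed by rising mouse number, from F2 to F10. The 8 adipocyte markers, such as Adipoq, Plin1 and Fabp4, summed to 3780, 1125, 7129, 278 and 3395 CPM in them. The vehicle-treated females ranged from 288 to 2650 CPM. By mouse, F2, F6 and F10 were thus highest for both sums. The marker Cfd, which is part of every adipocyte sum given here, did not follow this pattern. For Cfd 0 of 5 treated females lay above the vehicle range and 1 lay below it. In females 7 of the 8 adipocyte markers had a positive log2 fold change, with a median of 2.17 over the 8 and a lowest value of -0.77. An unadjusted p under 0.05 was found for 7 of the 8 (edgeR). Of the 8 markers 1 passed the test in females, Lep, which encodes the fat hormone leptin and reached 263, 55.3, 657, 3.19 and 240 CPM in the treated females, against 0 to 4.24 CPM with vehicle. None of the 8 passed in males. No other adipocyte marker was at 0 in any mouse. In vehicle-treated females F3 and F5, the adipocyte sums were 2150 and 2650 CPM while the 8 sterol genes summed to 167 and 204 CPM. F5 was thus the highest of the 6 vehicle-treated females, which ran from 165 to 204 CPM, in both sums. Fdft1, which did not pass the test, was the largest part of the sterol sum in F3 (67.3 CPM) and F5 (88.9 CPM). F3 had the lowest Fdft1 of the 6 vehicle-treated females. The place of F3 among them differed by gene, being next below F5 for Insig1 (28.2 and 36.3 CPM) and lowest for Idi1 (1.80 CPM). The 8 sterol genes summed to 412, 211, 437, 168 and 394 CPM in the treated females. With the mean log2 level of the adipocyte markers as a covariate, the 8 log2 fold changes in females fell to a median of 0.98 (range -0.02 to 1.41). None of the 8 genes passed the test in that fit, Lss coming nearest at an adjusted p of 0.0141 (edgeR). The covariate includes Lep, which itself rose with treatment in females, so this fit cannot separate adipocyte RNA from the treatment effect. A covariate without Lep was not fitted. Myofiber markers summed to 145740, 174230, 104220, 142040 and 80502 CPM in the treated females, against 131280 to 191040 CPM with vehicle, so that 2 of the 3 mice with high sterol genes were below the vehicle range, and 1 of 8 markers was called (Pvalb, which fell). Macrophage markers summed to 170, 164, 245, 94.3 and 297 CPM in the treated females, against 71.8 to 153 CPM with vehicle, and 0 of 8 passed the test. In females 8 of 8 macrophage markers had a positive log2 fold change (median 0.96), and 5 had an unadjusted p under 0.05 (edgeR). Schwann cell markers summed to 191, 68.4, 124, 71.9 and 222 CPM in the same mice, against 50.8 to 175 CPM, with Pmp2 at 0 in all 5 mice and 0 of 6 tested markers called. With the Schwann cell covariate the 6 calls were also made, with a median log2 fold change of 1.32 over the 8 genes. Hepatocyte markers did not follow this order, with sums of 39.8, 132, 1084, 197 and 2362 CPM (0 of 8 called). Their log2 fold changes in females had a median of 2.07, and 2 of 8 had an unadjusted p under 0.05 (edgeR). The 6 calls in females were also made without F10 and M8. The part of adipocyte RNA, of macrophage RNA and of the lower myofiber RNA in the female result was not tested.

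The other enzymes of the pathway were counted from a list of 13 genes, of which 12 had enough counts to be tested and Fdps, at no more than 0.764 CPM in any mouse, did not. In females 6 of the 12 rose (7.40% of all genes did) and none fell, and all 12 had a positive log2 fold change, with a median of 0.88. Early in the pathway, Acat2, which joins acetyl-CoA units, rose by 2.41 ± 0.52 on the log2 scale (adjusted p = 0.002), from 2.73 to 13.5 CPM with vehicle to 53.1, 4.28, 51.3, 4.52 and 41.1 CPM in the treated females. Pmvk and Mvd, which act on phosphorylated mevalonate, rose by 1.26 ± 0.26 and 0.94 ± 0.20 (adjusted p = 0.00129 and 0.0018). After lanosterol, Msmo1 and Nsdhl, which remove the C4 methyl groups, rose by 1.26 ± 0.26 and 1.79 ± 0.39 (adjusted p = 0.00152 and 0.00192), and Ebp, the sterol isomerase gene, rose by 0.72 ± 0.18 (adjusted p = 0.00634). F2, F6 and F10 were above every vehicle-treated female for each of the 6 genes, F8 joined them for Mvd, and F4 did so for none. The 6 tested enzymes that did not pass had log2 fold changes from 0.34 to 1.82. In males 0 of the 12 enzymes passed the test, 2 had an unadjusted p under 0.05, and the log2 fold changes ran from -0.57 (Dhcr7) to 0.41 (Hsd17b7) with a median of 0.11. The Ebp call was lost without any 1 of F1, F2, F6, F7, F9, F10 or F11 (adjusted p up to 0.0393), and that of Nsdhl without F6. In the female fit without males, and in the fit with the adipocyte covariate, none of the 12 was called.

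**Figure D3:**
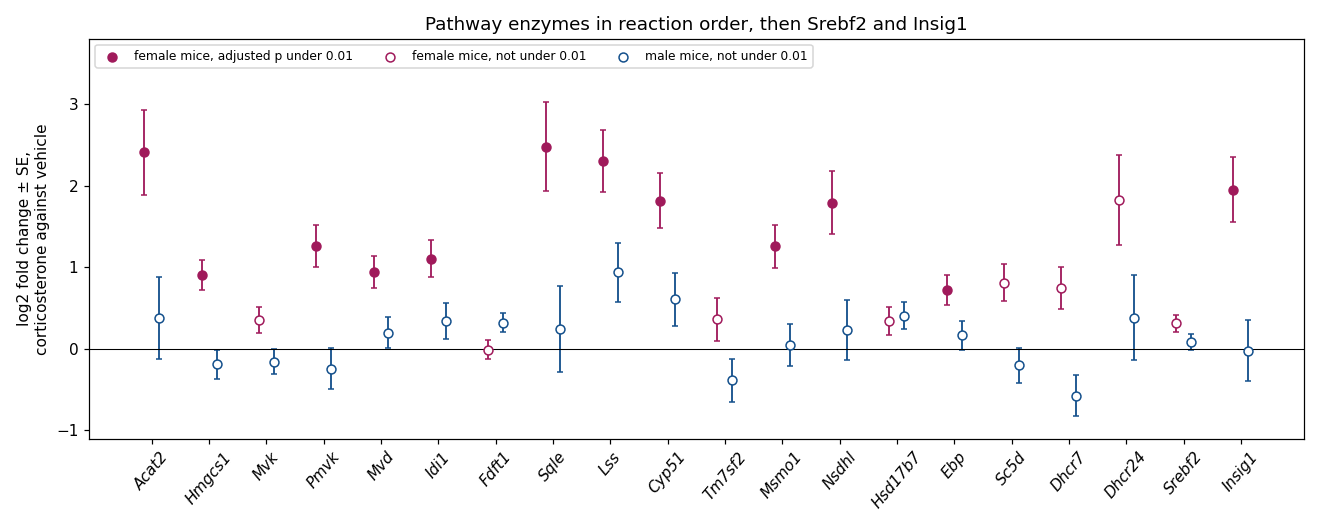
Log2 fold change of corticosterone against vehicle, with its SE, for the tested synthesis enzymes in reaction order and for Srebf2 and Insig1, in females (red) and males (blue). Filled points passed the edgeR test at an adjusted p under 0.01, all of them in females, and every female point lies above the male point except those of Fdft1 and Hsd17b7.

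Genes of uptake and lysosomal release were read from a list of 10, all tested. In females 2 rose, Lipa and Npc2, beside 7.40% of all genes, and none fell. Lipa and Npc2, which release cholesterol from lysosomes, rose by 0.89 ± 0.20 and 1.98 ± 0.31 in females (adjusted p = 0.00263 and 0.000163). With the adipocyte covariate their log2 fold changes were 0.52 and 1.11, and Lipa no longer passed (adjusted p = 0.0537). The Lipa call was also lost without F6, without F10 and without both F10 and M8, and both calls were lost with the females fitted alone, where Npc2 had an adjusted p of 0.0113. In males 1 of the 10 passed, beside 26.3% of all genes, Vldlr, the VLDL receptor gene, which fell by 0.82 on the log2 scale (SE 0.12, adjusted p = 2.33e-05).

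Genes of cholesterol efflux, esterification and LXR were counted from a list of 10, with 8 tested. Nr1h3, which encodes the sterol-sensing receptor LXRα, rose in both sexes. It went from 17.8 to 24.3 CPM in vehicle-treated females to 54.4, 33.2, 58.4, 42.7 and 40.4 CPM in the treated females, with no overlap, and the log2 fold change was 1.06 ± 0.13 (adjusted p = 1.56e-05). In males it went from 14.04 to 20.3 CPM to 41.6 to 56.8 CPM, again with no overlap (log2 fold change 1.45 ± 0.13, adjusted p = 6.29e-08). The cholesterol efflux pump genes Abca1 and Abcg1 also rose in females, by 1.10 ± 0.27 and 1.40 ± 0.34 (adjusted p = 0.00508 and 0.00514). Over the 10 alternative fits, those with 1 mouse left out aside, each call was lost in 4. Among these were the fits with the adipocyte covariate (log2 fold changes 0.41 and 0.67, adjusted p = 0.0549 and 0.129, edgeR), with the females fitted alone and with the hepatocyte covariate. Both calls were also lost without any 1 of F1, F6, F7, F10 or F11. That of Abca1 was also lost without F2, and that of Abcg1 without F9. In males Abca1 had a log2 fold change of 0.86 ± 0.26 and missed the threshold (adjusted p = 0.0119, edgeR). All 6 treated males still exceeded all vehicle-treated males. Every treated mouse lay above every vehicle-treated mouse for 10.8% of all genes in males and for 3.38% in females.

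Among the 8 genes for sterol sensing and enzyme turnover, none passed in either sex (edgeR), and 4 had an unadjusted p under 0.05 in females and 2 in males. The log2 fold changes of the 8 ran from -0.35 to 0.79 in females and from -0.27 to 0.31 in males. Within these ranges, the sensor gene Scap and Insig2 lay between -0.11 and 0.17. Among the 6 genes for non-sterol isoprenoids, Dhdds, which makes dolichol precursors, fell in males by 0.47 (adjusted p = 0.000312), and none of the 6 passed in females. Across all genes 13.4% were called in either direction in females and 26.3% in males.

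Fatty acid synthesis shares acetyl-CoA and, in part, SREBP control with the sterol pathway. In females 6 of its 9 listed genes rose, Acly, Acss2, Acaca, Acacb, Scd1 and Scd2, with a median log2 fold change of 2.84 over the 9, beside 7.40% of all genes that rose. Scd1, a stearoyl-CoA desaturase gene with a high level in fat, had 16472, 1768, 17886, 265 and 15144 CPM in the treated females and 139 to 1943 CPM with vehicle. The same 3 treated females were high for Acly, Acss2, Acaca, Scd1 and Scd2. With the adipocyte covariate, Acaca went from a log2 fold change of 2.79 to 0.78 (adjusted p = 0.237) and Acly from 3.19 to 1.31 (adjusted p = 0.133). Scd2 and Acss2 went from 2.84 and 2.22 to 1.85 and 1.42 in that fit, and Acacb from 0.46 to 0.39, and none of these 5 genes passed. Scd1 went from 4.09 to 1.49 and passed. Over the 10 alternative fits, those with 1 mouse left out aside, the Scd1 call was lost in 1. The calls were lost in 2 for Scd2 and for Acss2, in 3 for Acly and for Acacb, and in 6 for Acaca. The Acaca call was also lost without any 1 of F1, F2, F6, F7, F9, F10 or F11, that of Acly without F2, F6 or F7, and that of Acacb without F2 or F6. In males 1 of the 9 rose, beside 26.3% of all genes called in either direction, Acacb, by 0.70 ± 0.10 (adjusted p = 1.29e-05), an acetyl-CoA carboxylase gene that also rose in females by 0.46 ± 0.10 (adjusted p = 0.00284).

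Whether the response differed between the sexes was tested with an interaction term. None of the 8 genes passed, 6 had an unadjusted p under 0.05, and 0.690% of all genes passed. Hmgcs1 came nearest, with a male minus female difference of -1.09 ± 0.26 in log2 fold change (adjusted p = 0.0167), followed by Insig1 with -1.98 ± 0.54 (adjusted p = 0.0262) and Sqle with -2.24 ± 0.75 (adjusted p = 0.0517). Hmgcs1 and Insig1 passed with DESeq2, with limma-voom, and without F4 or without F8 in edgeR. Over all 13049 genes the interaction calls rose from 90 to 896, 693, 398 and 893 in those 4 fits.

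In vehicle-treated mice, males and females were compared directly and 0 of the 8 genes passed or had an unadjusted p under 0.05, beside 0.958% of all genes that passed. The log2 differences, male minus female, ran from -0.20 (Idi1) to 0.31 (Sqle). In treated mice 6 of the 8 genes were higher in females, the same 6 that rose in females, beside 23.3% of all genes called in either direction. This comparison uses the treated females again and is not a separate observation of them. Insig1 was lower in treated males by 1.86 ± 0.39 on the log2 scale (adjusted p = 0.00122) and Lss by 1.31 ± 0.37 (adjusted p = 0.00822). The count fell to 3 without F2, to 2 without F6, to 3 without F10, and to 2 without both F10 and M8, where the median log2 difference of the 8 was -1.01 against -1.14 with all mice. Over all genes the calls went from 3043 to 2669, 2009, 1885 and 1382 in those fits. The count for the 8 was 1 with the adipocyte covariate (median -0.69, 1507 calls over all genes) and 0 with the Schwann cell covariate (median -0.66, 145 calls over all genes). Of the 12 other enzymes tested 9 were higher in treated females.

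The genes whose mouse-to-mouse pattern was most like that of the 8 sterol genes were found from deviations within groups over the 23 mice. The 5 protein-coding genes nearest to the mean standardized deviation of the 8 were Me1 (Pearson r = 0.97), Nsdhl (0.94), Ap3s1 (0.94), Taldo1 (0.93) and Ralgapa2 (0.93). Me1 encodes cytosolic malic enzyme, a source of NADPH, Taldo1 encodes transaldolase of the pentose phosphate pathway, and Nsdhl is a sterol enzyme. The genes are measured in the same libraries and the treated females dominate the deviations. Over the 18 mice outside that group, r was 0.89 for Me1, 0.72 for Nsdhl, 0.72 for Ap3s1, 0.74 for Taldo1 and 0.67 for Ralgapa2. Me1 had 810, 217, 831, 189 and 583 CPM in the treated females, against 226 to 411 CPM with vehicle, so that F4 and F8 lay below the vehicle range while the other three lay above it.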

How the data were processed

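Quadriceps mRNA of 23 mice was sequenced as stranded 100 bp read pairs. The authors aligned reads with STAR 2.7.3a to mm10 and deposited whole-number counts per Ensembl gene from HTSeq 0.12.4 (mouse gene models, reverse strand). Summary entries, 10.7 to 15.3% of read pairs, were left out. Columns were matched to mice by title. Genes with more than 20 normalized counts in at least 4 mice of a group were kept (13049). Counts were tested with edgeR 4.0.16 (quasi-likelihood, TMM, 4 group means, R 4.3.3) with Benjamini-Hochberg adjustment over all genes and a threshold of 0.01, and the code was tested on simulated data. Folds are edgeR's. RPKM used GENCODE M21 exon lengths. Alternatives used DESeq2 1.42.0, limma 3.58.1, other filters and scalings, covariates and left-out mice. Replicates of a group differed by more than counting noise (chi-square per degree of freedom at least 15.0). SDs are the spread between mice, and SEs come from the edgeR fit, which includes that spread. The floor of 3 counts covers counting error only. Covariates are the mean log2 CPM of a marker list (prior count 1).

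The 8 genes and all lists were chosen with earlier results of these data known, and some genes of the lists are not reported here. The text names all 8 genes, list genes that passed in a treatment comparison and the 5 protein-coding genes nearest in pattern. Fdps, Scap, Insig2, Dhcr7, Hsd17b7 and the marker genes were named after their values were seen. The remaining marker lists were fibroblast (6 of 8 fell in males, 2 in females) and endothelial (1 of 8 fell in males, none called in females). Of the 8 myofiber markers 2 were called in males and 1 in females.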

Additional observations from a re-analysis of the deposited data

Results flagged for a closer look

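Dhdds, the dolichol precursor gene, differed between the sexes in its response by the interaction test (male minus female log2 difference -0.78, adjusted p = 0.00607, edgeR). All 5 treated females lay above the vehicle range and all 6 treated males below it. Every treated female was above every vehicle-treated female for 3.38% of all genes, and the share lying below in males was not computed. Within females Dhdds did not pass (adjusted p = 0.0206, edgeR). Single mice stood apart from the rest of their group in 6 of 108 groups of values examined, where chance alone gives about 1 in 20. Vehicle-treated F5 was high for Acly (176.84 CPM), Acat2 (13.521 CPM), Pmvk (13.908 CPM) and Scd1 (1942.6 CPM), and its adipocyte marker sum was 2650 CPM. Treated female F4 was high for Vldlr (196.87 CPM), and vehicle-treated male M1 was low for Vldlr (267.42 CPM). None of the 8 sterol genes had such a mouse in any group.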

How the results depend on the processing

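Of the 6 calls in females, 6 remained in each of the 23 fits that left out 1 mouse, and the count was 5 to 7 under the other alternatives except that it was 0 with each sex fitted alone and 0 with the adipocyte covariate. For the other synthesis enzymes in females, the count of 6 was also 0 in both of those fits, and it was 4 to 10 with 1 mouse left out (10 without F4). In males the count of 0 became 1 with limma-voom and 2 with each sex fitted alone or at an adjusted p under 0.05, and 0 to 1 with 1 mouse left out (Fdft1 without M5). The interaction count of 0 became 2 with DESeq2, limma-voom or an adjusted p under 0.05, and 0 to 2 with 1 mouse left out. Between treated males and females, the count of 6 was 2 without both F10 and M8, 1 with the adipocyte covariate, 0 with the Schwann cell covariate, and 2 to 7 with 1 mouse left out. Replicate numbers are shared across the sexes. The 11 same-numbered pairs had correlations of deviations from -0.38 to 0.48, with 7 over 0.1 and 4 correlating best with their own number. So few pairs with such mixed correlations cannot decide whether the numbers pair the mice. With the number as a replicate block, the count of 6 between treated males and females was 2.

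Directions reversed only for log2 differences that had not passed the test. Fdft1 in females was 0.0297 without both F10 and M8, 0.0248 with the hepatocyte and 0.0315 with the Schwann cell covariate, and -0.106 to 0.028 with 1 mouse left out. Fdft1 between vehicle-treated sexes was -0.016 with limma-voom, -0.00171 with the hepatocyte and -0.0762 with the Schwann cell covariate, and -0.0545 to 0.0702 with 1 mouse left out. Sqle in males was -0.048 without both F10 and M8 and -0.0545 to 0.573 with 1 mouse left out, and Sqle between vehicle-treated sexes ran from -0.0219 to 0.439. Between vehicle-treated sexes Lss was -0.0156 with the adipocyte covariate and -0.022 to 0.158 with 1 mouse left out, and Cyp51 was 0.0602 with the Schwann cell covariate. Insig1 in males was 0.0931 with the Schwann cell covariate and -0.149 to 0.0618 with 1 mouse left out. The causes of these changes were not tested. Fdps had too few counts to be tested.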
